A study of Homo sapiens with 2 samples.

Results

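Open chromatin sites that lie between genes and hold few CpGs are described here in H9 cells, an established line of human embryonic stem cells. They are the autosomal peaks of the deposited list whose summit lay outside every protein-coding gene, more than 1 kb and at most 100 kb from the nearest end of such a gene, and that held at least 1 CpG but fewer than 5 CpGs per 100 bp. Of 46884 autosomal peaks, 9336 (19.9%) met these rules. A total of 8172 of them (87.5%) had at least 10 reads over their CpGs in each replicate and were measured, and 1164 were left out. The limits use position and CpG content and no methylation value, although methylation differs with CpG content, as given below.

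The study profiled undifferentiated H9 cells by ATAC-Me, a joint assay. A transposase first cuts and tags accessible DNA. The tagged fragments are then converted so that unmodified cytosines no longer read as C, while methylated ones do. There was 1 group with 2 replicates and no treated group, and the cells were kept undifferentiated on Matrigel in mTeSR medium. Comparisons are therefore between classes of sites within each library. The labels do not state that the replicates were grown separately, and their spread may therefore be only technical.

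Mammalian DNA is methylated at most CpGs, and CpG islands, the dense clusters found at many promoters, are the main exception. CpG-sparse open sites away from promoters include enhancers, which bind transcription factors and act on genes at a distance, and sites of the insulator protein CTCF. In other cell types such sites are known to carry low or intermediate methylation, and loss of methylation there is linked to factor binding. Stem cells keep both the enzymes that write methylation and the TET enzymes that oxidise it at a high level. Whether oxidised forms are counted among the methylated reads was not tested here.

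The replicates held 28475863 and 51406146 reads over autosomal CpGs, and the sparse intergenic sites took 646625 and 734331 of them. A measured site had a median of 48 reads in replicate 1 and 54 in replicate 2, summed over a median of 5 CpGs. A read that covers several CpGs was counted at each of them, so fragments are fewer than reads, and 95% Wilson intervals, given below for single sites, cover counting error only. The median site was 265 bp wide (range 132 to 2406), had 1.75 CpGs per 100 bp and lay 19061 bp from the nearest gene end. The authors' peak signal, which ranks peaks within their list and has no unit, ranged over the sites from 200.02 to 9427 with a median of 478.

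Most of these sites have no sequence among the tables at hand, but at 190 of the measured ones a long non-coding RNA (lncRNA) starts within 500 bp of the summit, and RefSeq (GRCh38.p14) gives the bases around that start. The 7 below were taken from the strongest such sites in each methylation class and are shown because they span the range found of levels, with no methylated read in a replicate at the low end and nearly full methylation at the high end. Each is the stretch of the window from 250 bases before to 50 after the start that falls inside the peak, written 5′ to 3′ on the strand of the lncRNA, with the CpGs in capitals.
LOC112268411, chr2:5726219-5726518, plus strand: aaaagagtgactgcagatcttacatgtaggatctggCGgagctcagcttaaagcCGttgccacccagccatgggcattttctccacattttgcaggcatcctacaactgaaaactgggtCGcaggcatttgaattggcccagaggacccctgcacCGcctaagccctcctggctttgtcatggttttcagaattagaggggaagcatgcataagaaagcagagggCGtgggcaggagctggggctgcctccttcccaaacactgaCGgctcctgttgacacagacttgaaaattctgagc
LOC124901448, chr6:158853338-158853637, plus strand: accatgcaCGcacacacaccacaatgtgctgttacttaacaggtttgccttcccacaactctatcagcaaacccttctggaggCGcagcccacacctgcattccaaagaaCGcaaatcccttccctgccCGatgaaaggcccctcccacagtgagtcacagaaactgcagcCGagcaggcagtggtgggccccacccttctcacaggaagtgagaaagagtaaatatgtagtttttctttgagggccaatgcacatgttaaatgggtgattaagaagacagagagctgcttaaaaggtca
SNHG29, chr17:16438737-16439036, plus strand: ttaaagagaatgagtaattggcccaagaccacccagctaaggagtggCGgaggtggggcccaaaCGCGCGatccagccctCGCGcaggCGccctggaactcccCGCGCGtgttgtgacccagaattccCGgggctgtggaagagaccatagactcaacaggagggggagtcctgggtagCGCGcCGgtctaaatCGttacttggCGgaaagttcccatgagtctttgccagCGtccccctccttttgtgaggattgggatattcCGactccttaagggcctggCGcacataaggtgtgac
LOC105370680, chr14:102524570-102524869, plus strand: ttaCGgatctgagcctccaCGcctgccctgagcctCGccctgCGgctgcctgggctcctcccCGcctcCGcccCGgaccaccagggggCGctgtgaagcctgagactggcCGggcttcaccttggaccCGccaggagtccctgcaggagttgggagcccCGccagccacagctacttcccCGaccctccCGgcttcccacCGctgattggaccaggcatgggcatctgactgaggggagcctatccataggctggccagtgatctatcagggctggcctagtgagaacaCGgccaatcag
LOC107985278, chr19:2034834-2035131, minus strand: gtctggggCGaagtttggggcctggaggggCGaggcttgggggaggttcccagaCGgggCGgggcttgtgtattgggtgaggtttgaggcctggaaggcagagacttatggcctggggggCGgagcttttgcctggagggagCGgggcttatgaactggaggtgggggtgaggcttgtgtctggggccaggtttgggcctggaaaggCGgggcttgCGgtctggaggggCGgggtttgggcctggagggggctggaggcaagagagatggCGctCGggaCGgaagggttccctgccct
LOC101927623, chr9:86127290-86127589, plus strand: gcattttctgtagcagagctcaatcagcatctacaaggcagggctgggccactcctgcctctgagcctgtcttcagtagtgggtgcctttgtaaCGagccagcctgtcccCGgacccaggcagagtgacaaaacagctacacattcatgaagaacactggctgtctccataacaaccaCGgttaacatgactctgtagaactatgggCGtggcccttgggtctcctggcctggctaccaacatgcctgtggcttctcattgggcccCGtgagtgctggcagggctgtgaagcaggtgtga
LINC02139, chr16:85136905-85137132, plus strand: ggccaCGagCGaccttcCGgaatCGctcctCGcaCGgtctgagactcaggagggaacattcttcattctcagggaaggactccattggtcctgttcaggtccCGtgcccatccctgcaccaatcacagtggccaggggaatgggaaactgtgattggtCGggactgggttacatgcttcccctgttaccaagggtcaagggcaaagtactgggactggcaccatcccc

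The first 3 of these sequences were almost free of methylation. The 6 CpGs of the LOC112268411 stretch, which lies 24973 bp from SOX11, a transcription factor gene of the neural lineage, had 0 methylated of 300 reads in replicate 1 and 1.69% of 237 in replicate 2. The 0 allows a level of up to 1.0%. The 5 CpGs at LOC124901448, near EZR (the membrane linker ezrin), had 0 of 198 reads in replicate 1 and 3.65% of 137 reads in replicate 2. All 19 CpGs at SNHG29, the host of small nucleolar RNAs, were at 0 in replicate 1 and between 0% and 3.7% in replicate 2, with 599 and 973 reads in all.

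The LOC105370680 stretch was not uniform. Its first 4 CpGs, farthest before the start, read 62.5%, 44.4%, 13.3% and 16.7% methylated in replicate 1, and 18.8%, 13.3%, 8.0% and 15.6% in replicate 2. Its remaining 11 CpGs lay between 0% and 3.8% in both. The first CpG rested on 8 and 16 reads.

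The next 2 sequences were partly methylated at most of their CpGs. At LOC101927623 the 5 CpGs ranged from 17.1% to 53.8% in replicate 1 and from 14.3% to 62.5% in replicate 2, and the 2 CpGs farthest before the start were the highest in both. At LOC107985278, 2370 bp past the far end of MKNK2 (a kinase of translation initiation factor eIF4E), the first 6 CpGs ranged from 18.8% to 71.4% and from 15.7% to 55.2%, with 14 to 24 reads in replicate 1 and 54 to 70 in replicate 2. At LINC02139 the 8 CpGs were at 80% to 100% and at 62.5% to 100%, on only 4 to 19 reads a CpG. The whole stretch had 96.2% methylation in replicate 1 and 84.0% in replicate 2, and it covers the entire peak.

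Across all measured sites the question is how methylated CpG-sparse open DNA between genes is, and the answer was a broad range with most sites low. The median site had 12.3% methylation in replicate 1 and 13.5% in replicate 2, a mean of 12.9% ± 0.838 (SD, n = 2). On average 61.9% ± 1.01 of the sites were under 20%, 36.7% ± 1.09 lay between 20% and 80% and 1.41% ± 0.0779 were over 80% (SD, n = 2). Sites under 20% in both replicates numbered 4522 (55.3%), against 70.2% of all 40703 measured autosomal peaks. Sites at 40% to 60% in both numbered 454 (5.56%, against 3.68%), and 43 sites were over 80% in both (0.526%, against 0.391%). Comparisons of classes carry no p, because the smallest two-sided value of an exact permutation test on 2 pairs is 0.5.

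**Figure D1:**
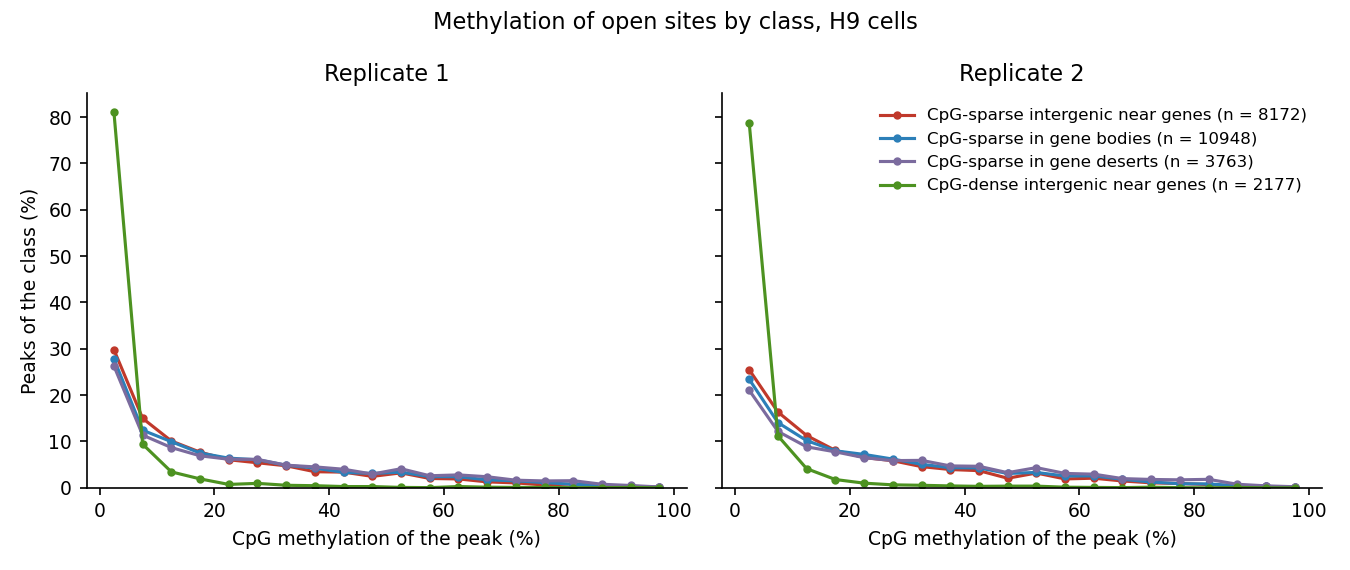
Share of peaks (vertical axis, %) in steps of 5 points of methylation (horizontal axis, %) in replicate 1 (left) and replicate 2 (right), for 4 classes of measured peaks. In the lowest step lie 29.8% and 25.5% of the CpG-sparse intergenic sites near genes, against 81.03% and 78.6% of the CpG-dense ones, and the 3 sparse classes run close together.

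Sparse intergenic sites read as less methylated than sparse sites in gene bodies and in gene deserts, and as far more methylated than CpG-dense sites at the same distances from genes. The 10948 measured sparse peaks in gene bodies had medians of 14.8% and 16.2%, so the intergenic sites differed by −2.59 ± 0.153 percentage points (SD, n = 2). This difference depends on the weighting: with the reads of each class pooled it was 0.437 ± 0.876 points, which does not exceed the spread between replicates. Against the 3763 sparse peaks over 100000 bp from any protein-coding gene (medians 17.4% and 20%) the difference was −5.77 ± 1.01 points. Against the 2177 peaks with 5 or more CpGs per 100 bp (medians 1.12% and 2.05%) it was 11.3 ± 0.184 points (SD, n = 2). The last 2 differences exceeded the spread between replicates under every setting tried.

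Reads of closed chromatin that fall inside a peak could raise its value, and their share was estimated from the reads per CpG outside peaks 2000 to 10000 bp from the summit. The median estimate for the intergenic sites was 5.22% of reads in replicate 1 and 11.6% in replicate 2, where outside CpGs were 77.8% and 83.0% methylated. It was 5.15% and 11.9% in gene body sites, 3.21% and 9.08% in desert sites, and 5.90% and 10.6% in dense sites. Among peaks with an estimate under 10% in both replicates, 3155 of them intergenic sites, the median of the sites was 9.88% and the difference from gene body sites was −0.331 ± 0.0448 points. The estimate was not subtracted from any value, and its part in the levels was not tested.

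Most CpGs of partly methylated sites were neither low nor high in both replicates. Single CpGs were examined at 460 sites that were between 20% and 80% in both replicates and had at least 3 CpGs with 10 or more reads in each. Of their 1947 such CpGs, 80.4% were themselves not under 20% in both replicates and not over 80% in both, 18.3% were under 20% in both and 1.34% were over 80% in both. Only 3 of the sites (0.652%) held both a low and a high CpG, while 233 (50.7%) held neither. A low CpG was present at 213 of the sites (46.3%). With as few as 10 reads on a CpG, counting error alone can bring a value under 20%, so evenness within a site was not tested. In the 2163 comparable sites under 20%, 92.4% of CpGs were low. These tables do not hold single reads, so whether a partly methylated site mixes methylated and unmethylated alleles or cells cannot be told apart from partial methylation of each molecule.

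Methylation was lowest in a short stretch around the summit. Within 50 bp of the summit 12.4% and 12.6% of the CpG reads of the sites were methylated in replicates 1 and 2. The values were 19.01% and 20.3% at 100 to 150 bp, 32.5% and 36.05% at 200 to 250 bp and 37.5% and 45.2% at 400 to 450 bp. Beyond 600 bp methylation came down again, to 25.9% and 37.1% at 950 to 1000 bp, a rise over the summit of 19.05 ± 7.75 points (SD, n = 2).

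The outer values included CpGs that belong to neighbouring open sites. With CpGs within 2000 bp of any other summit left out, methylation at 950 to 1000 bp was 65.6% and 73.3% and the rise was 56.1 ± 5.28 points (SD, n = 2). Dense sites were at 1.79% and 2.76% within 50 bp and rose by 16.7 ± 5.10 points, measured without that step. Coverage dropped with distance, with 15.4 and 18.3 reads per CpG at the summits of the sparse sites and 1.92 and 3.26 at 950 to 1000 bp. Whether the reads seen far from the summit represent the closed DNA there was not tested.

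**Figure D2:**
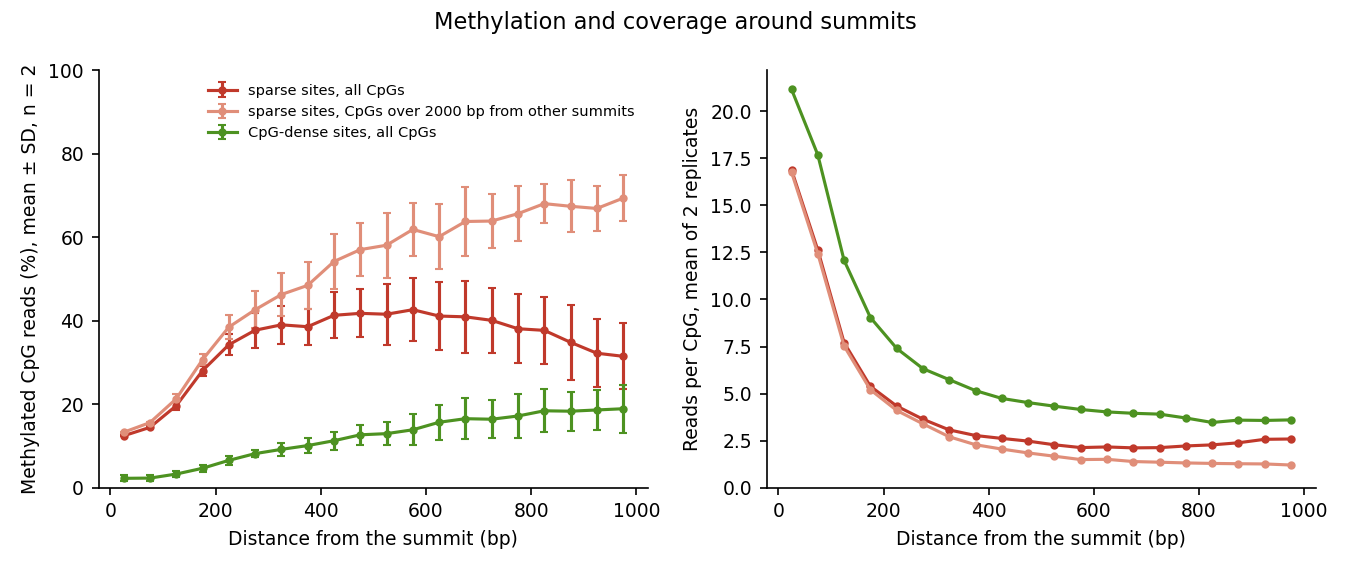
Left, methylated CpG reads (%, mean ± SD of 2 replicates) by distance from the summit in steps of 50 bp; right, reads per CpG (mean of 2 replicates). The sparse intergenic sites climb from their summit to a plateau by about 400 bp, the same sites climb to above 60% once CpGs near other summits are left out, and dense sites stay at the bottom.

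Of the properties compared, the strength of the peak went with the largest difference in methylation. In 5 classes of equal size by the authors' signal, from lowest to highest, the median site had 20%, 17.2%, 14.3%, 10.3% and 5.01% methylation in replicate 1 and 21.4%, 18.4%, 14.8%, 11.4% and 6.02% in replicate 2. The highest class thus differed from the lowest by −15.2 ± 0.295 points (SD, n = 2). Over the 8172 sites Spearman's rho with signal was −0.276 ± 0.00823 (SD over 2 replicates), a description over sites that share their libraries and depth. The estimated background share moved with it, with medians of 3.31% and 7.83% in the highest class and 7.26% and 15.1% in the lowest. Sites of the highest class also had more reads, with medians of 130.0 and 129 against 27 and 33 in the lowest.

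Within the sparse range, sites with the most CpGs read lowest. From 0 to 1 up to 4 to 5 CpGs per 100 bp the medians were 13.3%, 15.6%, 13.7%, 8.83% and 4.09% in replicate 1 and 15.4%, 16.7%, 14.2%, 9.16% and 4.76% in replicate 2. Sites with 4 to 5 CpGs per 100 bp differed from those with 1 to 2 by −11.7 ± 0.298 points (SD, n = 2). Values did not jump at the limit of the class: the 277 sites with 4.5 to 5 CpGs per 100 bp had medians of 3.26% and 3.84%, and the 267 peaks just beyond it, with 5 to 5.5, had 2.64% and 3.23%. With reads pooled over sites the class of 0 to 1 CpGs per 100 bp was the highest, at 16.9% and 18.5%, against 16.8% and 17.7% at 1 to 2. The 324 sites with a single CpG had medians of 8.33% and 10.53%, below the 17.4% and 19.05% of the 1136 sites with 2 CpGs. They needed 10 reads on that CpG, and their median signal was 502 against 393.

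Sites close to a gene read lower than remote ones, by more beside gene starts than beside far ends. In distance classes of 1 to 5, 5 to 20, 20 to 50 and 50 to 100 kb the medians were 9.89%, 11.1%, 13.6% and 15.1% in replicate 1 and 11.1%, 12.5%, 15.0% and 16.7% in replicate 2. The nearest class differed from the farthest by −5.38 ± 0.248 points (SD, n = 2). The distance classes were not matched on CpG density. The strand of the nearest gene could be read for 3323 sites nearest to a start and 3065 nearest to a far end, and not for the other 1784. At 1 to 5 kb the 580 sites by a start had medians of 7.91% and 8.78%, against 12.9% and 13.8% at the 525 sites by a far end, a difference of −5.02 ± 0.0402 points (SD, n = 2). The nearest class minus the farthest was −7.59 ± 0.416 points among sites by a start and −2.11 ± 1.03 points among sites by a far end.

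The gap between starts and far ends was smaller at larger distances. It was −1.20 ± 0.456 points at 5 to 20 kb and −1.48 ± 0.535 points at 20 to 50 kb. At 50 to 100 kb it was 0.454 ± 1.48 points, which does not exceed the spread between replicates. DNA outside peaks around the nearest sites by starts was itself less methylated, at medians of 40.4% and 50.8% against 76.7% and 83.1% by far ends, and its estimated share of reads was 9.97% and 17.4% against 6.32% and 12.3%. The part of these surroundings in the gap was not tested, and sites by starts and far ends were not matched on CpG density. At the edges of the class, the 255 sites just inside the near limit, at most 1500 bp away, had medians of 7.27% and 9.17% and the 324 sparse peaks just outside it, at 500 to 1000 bp, had 6.91% and 7.57%. The 228 sites at 90 to 100 kb had 16.3% and 16.1%, and the 220 sparse peaks at 100 to 110 kb had 12.8% and 16.8%.

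**Figure D3:**
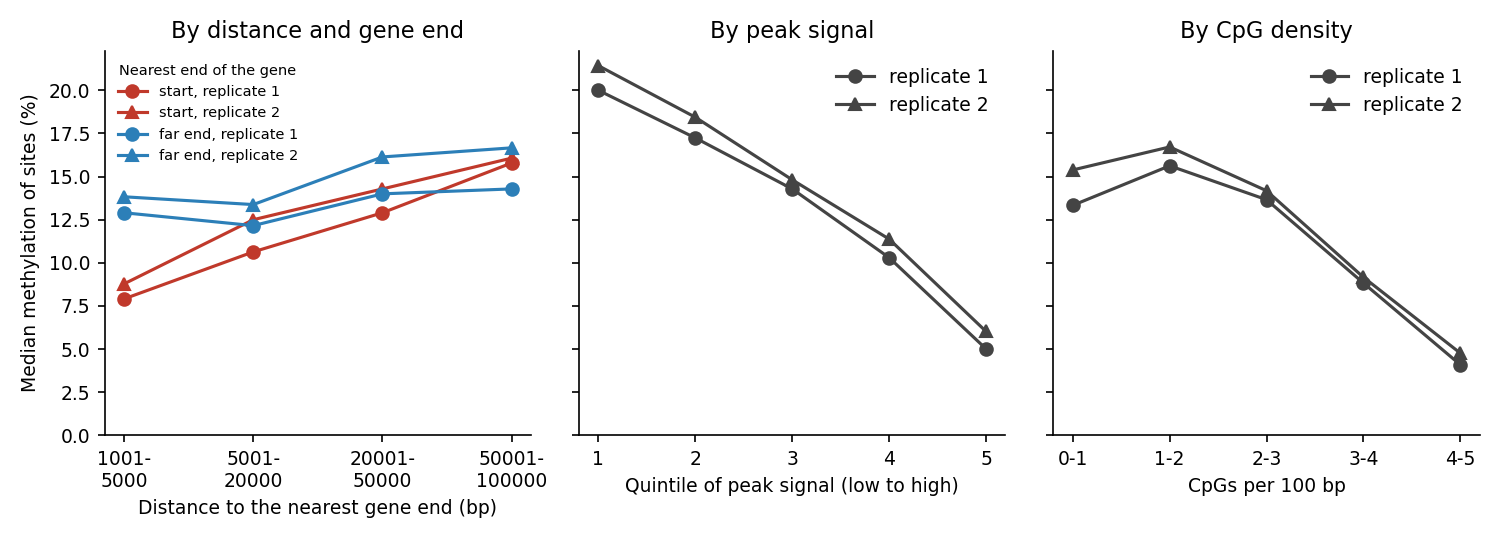
Median methylation of the sites (%) in each replicate by distance to the nearest gene end (left, split by start and far end), by 5 classes of peak signal (middle) and by CpGs per 100 bp (right). Sites 1 to 5 kb from a start lie lowest on the left at 7.91% and 8.78%, and the decline with signal runs through all 5 classes in both replicates.

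The 6 strongest sites under 20% methylation had signals of 3887 to 9427. The site of highest signal (9427) lay over MTRNR2L8, a nuclear copy of mitochondrial sequence, 1336 bp from AMPD3 (AMP deaminase) at chr11:10507864-10510269, and had 1.38% methylation over 3902 reads in replicate 1 (95% Wilson interval 1.06 to 1.80) and 3.51% over 2676 in replicate 2 (2.88 to 4.28). Reads of the mitochondrial genome and of this copy may be hard to separate, so its value is uncertain. A site 16189 bp from the zinc finger gene ZNF506 (chr19:19776147-19776904) had 0.153% of 1303 reads and 0.829% of 2170 reads methylated. A site 44909 bp from ADM, the gene of the vasodilator peptide adrenomedullin, had 0.502% and 0.492%.

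A pair of these strong sites were neighbours on chromosome 4. The first (chr4:26028143-26029128), nearest to RBPJ, the DNA-binding effector of Notch signalling, had 2.59% and 4.03% of 1854 and 1512 reads methylated. The second (chr4:25993376-25994203), nearest to SMIM20, was higher at 8.19% and 10.9% of 623 and 570 reads. Its intervals (6.28 to 10.6 and 8.58 to 13.7) do not overlap those of the first (1.96 to 3.42 and 3.15 to 5.15). These intervals take each CpG read as independent and so are too narrow, and the difference between the sites was not tested. A site 10727 bp from COBL, an actin nucleator gene, completed the 6 of highest signal with 0.551% and 1.45%.

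Intermediate values were also found at strong, well covered sites. A site 55845 bp from PANX1, a membrane channel gene (chr11:94237709-94238518), was 51.5% methylated over 509 reads in replicate 1 (95% Wilson interval 47.1 to 55.8) and 54.9% over 789 in replicate 2 (51.4 to 58.3). Its 29 CpGs had an estimated background of 2.46% and 2.23% of reads. A site 67122 bp from ZNF804A (chr2:185006463-185006878) was at 48.0% and 46.5% over 175 and 129 reads, also with a low estimate of 0.940% and 2.27%. A site 83073 bp from the adhesion receptor gene ADGRD1 was at 47.5% and 54.4%. These 3 sites lay near the middle of the range in both libraries.

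The other strong intermediate sites carried more estimated background. The site of highest signal in this class, 1791 bp past the far end of PTMA (prothymosin alpha), read 42.3% and 40.5%, with an estimated background of 7.97% and 37.4% of its reads. A site by SERPINH1, a collagen chaperone gene, read 56.8% and 47.8%, and a site by NBPF1, in the pseudogene CROCCP2, read 52.8% and 40.1% (exact test between replicates, adjusted p = 0.04). NBPF1 and CROCCP2 belong to repeated families, so the reads there may be split between copies.

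Sites over 80% in both replicates included some with good coverage. The site by DDX51, an RNA helicase gene, read 90.4% of 115 reads in replicate 1 (95% Wilson interval 83.7 to 94.6) and 80.6% of 144 in replicate 2 (73.3 to 86.2), with a signal of 569. The site by AGA, a lysosomal enzyme gene, read 89.02% of 82 and 90.6% of 64 reads with a signal of 546. Sites by MRTFA and CIBAR2 had signals of 360 and 306 and values between 83.5% and 96.2%. The CIBAR2 site is the one printed above under LINC02139.

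The replicates gave similar values for most sites. Spearman's rho between them was 0.854 over the 8172 sites, the median of replicate 2 minus replicate 1 was 0.694 points, and 75.6% of sites differed by at most 10 points. By Fisher's exact test per peak with Benjamini-Hochberg adjustment over all 40703 measured peaks, 165 sites (2.02%) differed at an adjusted p of 0.05, against 7.89% of all peaks. Of the 165, 95 were higher in replicate 2 (1.16%, against 7.19% of all peaks) and 70 were lower (0.857%, against 0.7%). This balance depends on the null: with the median odds ratio between the libraries (1.495) as the null, 22 sites were called higher and 250 lower in replicate 2. The sites have fewer reads than other peaks, and reads over several CpGs are not independent, so these p-values are too small.

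The largest differences between replicates exceeded 30 points. A site 34011 bp from LRBA, an immune regulator gene, read 10.8% of 344 reads in replicate 1 and 42.1% of 178 in replicate 2 (exact test, adjusted p = 2.8e-12). Sites by SCGB3A2 (10.8% and 43.9%, exact test, adjusted p = 0.0016) and TLK2 (33.3% and 64.7%, adjusted p = 0.039 by the same exact test) were also higher in replicate 2. In the other direction, a site 32661 bp from VIT read 56.0% and 16.7% (exact test, adjusted p = 0.00083). Sites by FECH (45.1% and 14.1%) and ARMC9 (45.6% and 14.9%) likewise had the lower value in replicate 2.

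Sites whose summit fell inside a transfer RNA gene stood apart. Transfer RNA genes are transcribed by RNA polymerase III from promoters inside the gene. The 33 measured sites of this kind had medians of 0.543% and 2.0%, against 12.5% and 13.6% for all other sites, a difference of −11.8 ± 0.226 points (SD, n = 2), and 31 of them were under 20% in both replicates. They are richer in CpGs than the rest. At 2 or more CpGs per 100 bp the 29 such sites had medians of 0.518% and 1.92% and the 3389 others 9.92% and 10.6%, a difference of −9.06 ± 0.488 points (SD, n = 2). This set was singled out after its values were seen.

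The tRNA sites were not independent in position. Of the 33, 16 lay on chromosome 6 between positions 26322870 and 28474591, where the human genome carries its largest tRNA gene cluster, with medians of 0.201% and 1.63%. The 17 others, on 8 chromosomes, had medians of 0.971% and 2.14%. DNA outside peaks around tRNA sites was at 32.8% and 39.5%, lower than around the sites as a whole, and 16 other sparse sites inside the chromosome 6 interval had medians of 0.0% and 2.35%. The part of the neighbourhood in the low values was not tested.

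Single tRNA sites covered a wide range of peak strength at nearly the same methylation. The strongest, TRA-TGC4-1 on chromosome 12, had 1.06% of 1227 reads and 2.14% of 981 reads methylated at a signal of 3368, and TRK-TTT3-2 on chromosome 1 had 0 of 44 and 1.16% of 86 reads at a signal of 209. The exceptions were TRC-GCA13-1 on chromosome 7, at 51.3% and 43.6% over 39 reads in each replicate, and TRG-CCC6-1 on chromosome 1, at 25% and 26.2% over 52 and 61 reads. tRNA genes come in near-identical copies, so reads may be assigned to the wrong copy.

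Genes of U1 small nuclear RNA variants gave similar values. The 10 sites with a summit in a gene listed as small nuclear RNA had medians of 0.874% and 1.98%, and 9 were under 20% in both replicates. The 7 RNVU1 sites, all on chromosome 1, ranged from 0.0% to 1.65% in replicate 1 and from 0.594% to 3.52% in replicate 2. SNAR-C3 on chromosome 19 was the exception at 86.4% of 125 reads and 76.7% of 369. These genes too are repeated, and the same limit on assigning reads holds.

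Sites in other non-coding units lay closer to the rest. Sites with a summit in a lncRNA gene (1763) had medians of 11.6% and 12.7%, against 12.5% and 13.8% at the 6146 sites outside every annotated gene, a difference of −0.969 ± 0.137 points (SD, n = 2). The 200 sites in pseudogenes had 15.4% and 15.8%, a difference of 2.47 ± 0.588 points from the same 6146 (SD, n = 2). The 190 sites with a lncRNA start within 500 bp had medians of 7.06% and 8.35%, against 12.5% and 13.6% at the other 7982, a difference of −5.36 ± 0.111 points (SD, n = 2). Averaged within classes of CpG density, that difference was −1.93 ± 0.183 points (SD, n = 2). The order was opposite in the class of 0 to 1 CpGs per 100 bp, where the 17 sites by a lncRNA start had medians of 20% and 20% and the 1623 others 13.3% and 15.4%.

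The windows at these lncRNA starts held common promoter motifs at close to the share of all windows. Each motif was searched on both strands of the 300 bases around the start, in 186 windows at the sites and in 35116 windows of protein-coding and lncRNA genes. TATAAA, the TATA box, was present in 10.2% of windows at the sites, 11.5% of all windows and 15.0% of the 12569 lncRNA windows. CCAAT was present in 33.9%, 34.6% and 34.4% in the same order. ATGCAAAT, the octamer bound by POU factors such as POU5F1, was present in 2.15%, 1.77% and 1.97%, which is 4 windows at the sites. A match is a run of letters and not a bound site.

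**Figure D4:**
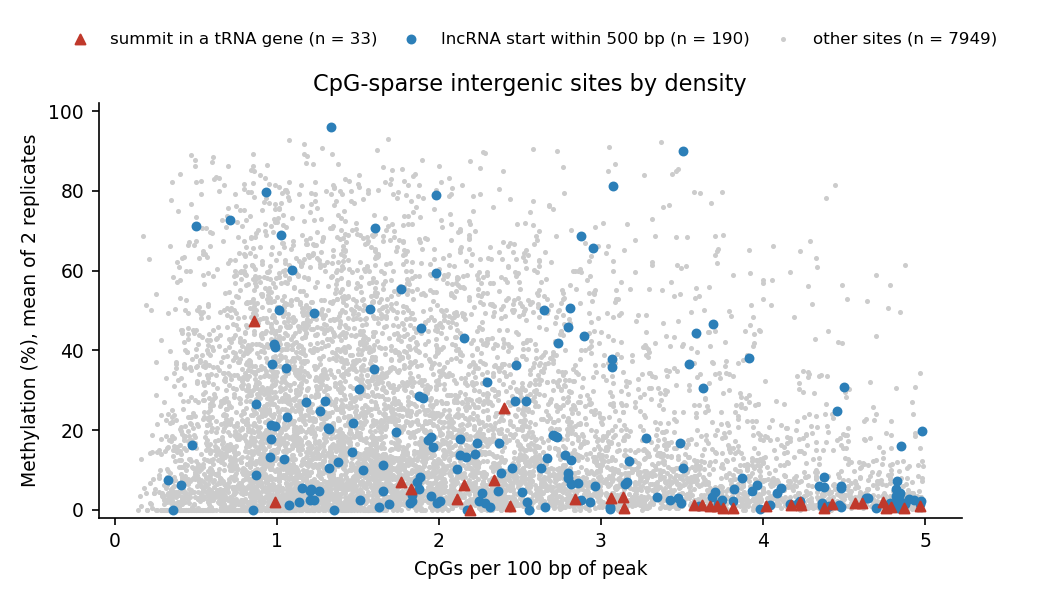
Each point is a measured site, by CpGs per 100 bp (horizontal) and methylation (vertical, %, mean of 2 replicates), with summits in tRNA genes, sites by lncRNA starts and the other sites marked. All tRNA sites except TRC-GCA13-1 and TRG-CCC6-1 lie below 10%, while sites by lncRNA starts run over the whole range.

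The sites were distributed unevenly over genes. They had 5545 of 19122 autosomal protein-coding genes as their nearest gene, 3259 of these with a single site and 155 with 5 or more. AMPH, the gene of the endocytic protein amphiphysin, had the most with 11, 13646 to 52611 bp away, of which 7 were under 20% in both replicates and none above 41.9% in either. FGFR1, GLI2 (a transcription factor of hedgehog signalling) and PTMA had 9 each, with 7 of 8, 8 of 9 and 6 of 9 measured sites under 20%. A further 11 genes had 8: SMAD6, MAP3K7 and BMPER, of BMP and TGF-beta signalling, and ADRA2C, AZIN1, BUD13, GADD45G, IER5, LINGO1, SPESP1-NOX5 and TDRD3. Methylation varied within a gene as well: sites by PTMA ranged from 2.0% to 74.3% in replicate 1 and from 1.89% to 81.3% in replicate 2.

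Sites nearest to pluripotency genes read low. The nearest gene need not be the gene a site acts on. Of 29 listed pluripotency genes, 22 had a site, with 2.03 sites a gene, against 0.488 over all genes. The rate was also above that of all genes by nodal and FGF genes (2.04), neural progenitor genes (1.22) and mesoderm and endoderm genes (1.16). These rates and those below are per gene, and the length of DNA between genes was not allowed for. The 52 measured sites by pluripotency genes had medians of 1.57% and 4.23%. Of these, 39 (75%) were under 20% in both replicates, against 55.3% of all sites. Their median signal was 582, above the 478 of all sites. The strongest were nearest to PODXL (podocalyxin, which carries stem cell surface epitopes; 0.360% and 0.826%), SFRP2 (a secreted Wnt modulator; 0.271% and 0.767%) and DPPA4 (a chromatin protein of pluripotent cells; 0 of 173 reads, which allows up to 1.73%, and 3.54% of 113).

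Among the pluripotency genes, SOX2, OTX2 and MYCN had the most sites, 7, 7 and 5. These genes and the other list genes named in the rest of this account were chosen after their values were seen, except where they are the strongest of a list. Of the 6 measured sites by SOX2, a core factor of pluripotency and of neural progenitors, 3 had no methylated read in either replicate, among them one 42444 bp past its far end with 69 and 53 reads (chr3:181756641-181757166). Another, 11342 bp before its start, read 18.1% and 19.2%, and the site of a single CpG read 21.4% of 14 and 0 of 13 reads. By OTX2, a factor of primed pluripotency and anterior neural tissue, 6 of 7 sites were under 20% in both replicates, and the site 95006 bp before its start differed between replicates at 39.02% of 41 reads and 8.77% of 57. By MYCN the 5 sites ranged from 0.725% to 26.1% in the mean of both replicates.

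Not every site near a pluripotency gene was low. Both sites by DPPA2, the partner of DPPA4, were partly methylated, at 50.6% and 53.5% for the nearer and 70.0% and 60.6% for the farther. The only site by SALL4, a zinc finger factor of stem cells, lay 97330 bp away and read 94.1% of 17 and 68.8% of 16 reads. ZFP42 had a site at 0.0% and 2.48% of 205 and 202 reads 27035 bp past its far end, and a site at 64.5% and 57.1% of 31 and 42 reads 66520 bp before its start.

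Signalling and lineage genes had lists of their own. The 45 measured sites by genes of nodal and FGF signalling, which maintain human stem cells in culture, had medians of 7.14% and 9.68%. Of these, 28 (62.2%) were under 20% in both replicates, against 55.3% of all sites. By FGFR1 7 of 8 sites were under 20%, and the strongest site by LEFTY1, an inhibitor of nodal, had 0 methylated of 63 and of 70 reads, which allows up to 4.76% and 4.29%. The strongest sites by SPRY2, an inhibitor of receptor signalling, and by FGFR3 read 2.37% and 2.78% and 5.86% and 4.57%. Both measured sites by FGFR3 were under 20%. The other measured site by SPRY2 was at 86.0% and that by LEFTY1 at 30.9% in the mean of both replicates. By SMAD3, which transmits nodal signals, only 2 of 5 sites were under 20% in both.

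Genes of lineages that arise only on differentiation also had some low sites. The 27 measured sites by mesoderm and endoderm genes had medians of 6.90% and 5.88%. Of these, 20 (74.1%) were under 20% in both replicates, against 55.3% of all sites. All 6 sites by EOMES, a T-box factor of the primitive streak, were under 20%, at 0.0% to 11.02% in replicate 1 and 0.0% to 17.1% in replicate 2, and 3 of them within 8840 bp of the gene had at most 1.77%. The strongest site by FOXA2, a factor of endoderm, read 0.962% and 4.44%, and that by MSGN1, a factor of presomitic mesoderm, 12.2% and 21.4%. The 30 sites by neural progenitor genes had medians of 12.2% and 5.95%, which differ more between replicates than those of the other lists. All sites had medians of 12.3% and 13.5%. Of the 30 neural sites, 18 (60%) were under 20% in both replicates, against 55.3% of all sites. The strongest, by SOX11, is printed above, and the next were those by POU3F3 (1.01% and 2.29%) and TFAP2A (2.81% and 9.0%), both transcription factors.

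The lists meant for comparison differed in their number of sites. Blood and immune genes had 6 sites by 5 of 17 genes, 0.353 a gene, with medians of 11.4% and 12.3% and 4 of 6 under 20%. The strongest, 7662 bp past the far end of TAL1, a blood stem cell factor, read 1.504% and 2.55%, and those by IKZF1 and RUNX1, also factors of blood cells, 9.59% and 11.8% and 7.87% and 12.6%. The 16 sites by housekeeping genes, 0.889 a gene and so above the rate of all genes, had medians of 2.83% and 6.74%. Of these housekeeping sites, 10 (62.5%) were under 20% in both replicates, against 55.3% of all sites. They split by gene. The strongest site by ACTB (beta-actin) read 2.31% and 3.54%. The 4 sites by YWHAZ ranged from 0.0% to 4.97% in the mean of both replicates, the 3 by TFRC from 23.4% to 29.7%, and a strong site 1659 bp past the far end of EEF1A1, a translation factor, read 68.3% of 337 and 71.6% of 342 reads. The medians of lists with under 30 sites rest on few values, and no test of a list was made.

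**Figure D5:**
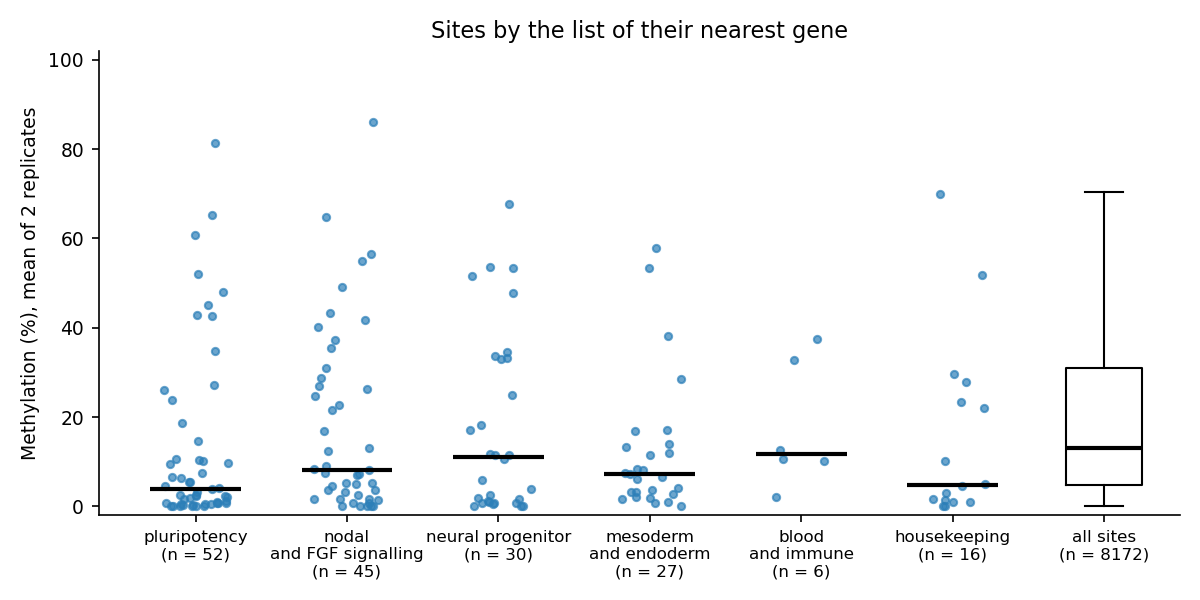
Methylation (%, mean of 2 replicates) of each measured site, by the list of its nearest gene, with the median of each list as a bar, beside a box of all 8172 sites (median and quartiles; single points beyond the whiskers are not drawn). Sites by pluripotency genes crowd below 20%, with a few up to 81.4%, and every list spans low and partly methylated sites.

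Chromosomes differed as well. The lowest medians were those of chromosomes 19 (7.69% and 8.76%), 17 (8.80% and 9.49%) and 1 (10% and 10.9%), and the highest those of chromosomes 4 (20% and 20%), 13 (16.7% and 19.8%) and 21 (16.8% and 16.0%). Chromosome 21 had 82 measured sites and chromosome 19 had 213. CpG rows marked as altered in the authors' tables made up 1.30% of the CpGs at the sites (679 of 52387), against 0.860% of all autosomal CpGs. Nearly all altered autosomal rows were at covered CpGs (81201 of 83214 in replicate 1 and 172205 of 176092 in replicate 2). Only 31.6% and 59.0% of autosomal CpGs were covered, so these shares differ in coverage and are not directly comparable. Leaving the altered CpGs out moved the median of the sites to 13.05%.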

How the data were processed

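H9 cells were profiled in 2 replicates of 1 group. The authors deposited, per replicate, 1 headerless table that gives each CpG a fraction of methylated reads and the count of reads on it. They also deposited, for the group, 1 peak list that holds a peak signal, a score of at most 1000, −log10 p and q values and the summit offset. The tools named per the submitters' processing notes are Trim Galore and Genrich, and the build is hg38 (GRCh38). Not given in the sources used here are the mapper, the methylation caller, the use of both replicates in peak calling, the removal of duplicates and the rate of conversion, which sets a floor under low values.

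Methylated reads are the fraction times the reads, whole within 0.001 in 100.0% of covered CpGs. The methylation of a site is its methylated over all CpG reads, per replicate, with the mean and SD over 2 replicates. Sites needed at least 10 reads in each. CpG positions were found to count from 0, since all 81087 CGs of promoter windows were then listed, and coordinates are printed counted from 1. Genes and windows are from RefSeq GRCh38.p14, and gene strand was taken from the promoter windows. Fisher's exact test, two-sided, ran over all 40703 measured peaks and was tested on simulated data.

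The members, lists and tests were chosen with earlier results of these data known. Named were, at 50 reads or more, the 6 strongest sites under 20%, at 40% to 60% and over 80% in both replicates, the 3 largest differences between replicates in each direction, the 3 strongest of each list, and the genes with most sites (15, ties included). A few of the items so named are left out of the text. Alternatives covered read, CpG and density minimums, peak significance, annotation, weighting, matching on density and signal, isolated CpGs, and each replicate left out. Python 3.11.15, numpy 2.4.6, pandas 2.3.3 and scipy 1.17.1 were used. The sequences of sites away from lncRNA starts were not analysed here.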

Additional observations from a re-analysis of the deposited data

How the results depend on the processing

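The 5 comparisons with gene body, desert and dense sites, by distance and by signal kept their direction under every alternative run, with 1 exception; the other comparisons of the text were not run under them. With reads pooled over peaks, sparse intergenic minus gene body sites was 0.437 points, the opposite sign, where the main value was −2.59; sites with more reads then weigh more. Apart from leaving out a replicate, 34 recomputed values moved by less than the SD between replicates and 58 by more, including 2 counts of Fisher calls, judged by their ratio. Stricter depth lowered the levels. With at least 30 reads (5252 sites), at least 50 reads (3424) and peaks above the median −log10 q (3602), in this order, the median of the sites was 9.59%, 7.62% and 8.59%, the share under 20% was 70.4%, 77.2% and 73.2%, the share between 20% and 80% was 28.98%, 22.4% and 26.4% and the share over 80% was 0.609%, 0.394% and 0.472%. In the same order the difference from desert sites was −3.70, −2.39 and −3.32 points, from dense sites 8.01, 6.05 and 7.29, between nearest and farthest sites −3.43, −2.44 and −3.26, and between the highest and lowest class of signal −10.1, −6.34 and −9.97. The difference from gene body sites was −1.31 points at 50 reads and −0.788 above the median −log10 q. With at least 3 covered CpGs (6678 sites) the 3 shares were 63.3%, 35.5% and 1.17%, and the differences were −3.09 points from gene body sites, 10.7 from dense sites, −4.87 for distance and −15.5 for signal. With the density limit at 3 (6588 sites) the median was 14.9%, the shares 57.9%, 40.6% and 1.56%, and the differences −2.002 from gene body, −4.28 from desert and 13.3 from dense sites, −5.02 for distance and −17.2 for signal. For sites outside every annotated gene (6146) the difference was −2.37 from gene body sites, −3.72 for distance and −16.4 for signal. Pooled reads gave −4.61 for distance and −16.02 for signal. CpGs over 2000 bp from other summits gave a rise of 56.1 points. Matching on density and signal gave −2.47 from gene body and −5.11 from desert sites, and matching on signal −5.53 for distance. Dense sites cannot be matched on density, since the densities do not overlap, and a match on signal alone was not run. Fisher calls among the sites were 165, with a difference of at least 20 points 86, and with the median odds ratio between the libraries (1.495) as the null 272; 768 passed an unadjusted p of 0.05.

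A further 2 settings were chosen after seeing the data. Without tRNA sites each value moved by less than the SD. Among the 3155 sites with an estimated background under 10% in both replicates the median was 9.88%, the shares 69.2%, 29.9% and 0.872%, and the differences −0.331 from gene body and 8.46 from dense sites, −4.09 for distance and −14.0 for signal; the cause was not tested. Leaving out either replicate gave a median of 12.3% to 13.5%, shares of 61.2% to 62.6%, 35.9% to 37.5% and 1.36% to 1.47%, differences of −2.70 to −2.49 from gene body, −6.49 to −5.06 from desert and 11.2 to 11.5 from dense sites, −5.56 to −5.20 for distance and −15.4 to −15.0 for signal, and a rise of 13.6 to 24.5 points. Each class difference was taken within a library and then averaged. Depth limits single sites: at the minimum of 10 reads a count of 0 still allows a level of up to 30 percent.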
